A study of Mus musculus with 22 samples.

Results

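NHS-muIL12 at 10 µg was added to avelumab at 200 µg in mice with EMT-6 tumours, and tumour gene expression was compared with that under avelumab alone. The comparison takes the 4 mice titled as given both agents (replicates 1 to 4) and the 3 mice titled as given avelumab only (replicates 2 to 4), 7 of the 22 mice of the study, and covers 750 genes in each, 20 housekeeping genes of the 770 measured being left out of the tests. EMT-6 is a mouse mammary carcinoma line, here implanted in the mammary fat pads of mice of the strain BALB/c, and each library is total RNA from the whole tumour of 1 mouse, host cells included. The series text speaks of 4 mice in each group, and the other avelumab mouse is not analysed here.

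All 7 mice were assigned to treatment at day 0, when the tumour had reached about 100 mm3, and all received 200 µg avelumab into a vein on days 0, 3 and 6. The combination mice also received 10 µg NHS-muIL12 under the skin on day 0 only, and tumours were taken on day 6. Avelumab is a human antibody against PD-L1 that also binds the mouse protein, and NHS-muIL12 is a fusion of murine interleukin-12 with an antibody that binds DNA and histones exposed in necrotic tissue. The groups used beside these were 4 mice with avelumab and 2 µg NHS-muIL12, 3 mice with 10 µg NHS-muIL12 and no avelumab, and 4 mice with isotype control. A further 4 mice, with 2 µg NHS-muIL12 and no avelumab, were not compared but entered the estimate of spread. The sources used here do not give the age of the mice. Epcam and Cdh1, which mark epithelium, were above 0 in each of the 7 mice, with signals of 23.4 to 66.3 and 12.8 to 80.4 under avelumab and 15.99 to 50.4 and 19.5 to 30.7 in the combination. The share of carcinoma cells in the tumours was not measured.

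Interleukin-12 is a cytokine of dendritic cells and macrophages that acts on natural killer (NK) cells and T cells through a receptor of the chains Il12rb1 and Il12rb2 and the transcription factor Stat4, and it makes these cells secrete interferon-gamma. Interferon-gamma in turn acts on most cells of a tumour, in part through the transcription factor Irf1, and switches on antigen presentation, chemokines such as Cxcl9, Fc receptors of macrophages and PD-L1 itself, the target of avelumab. MHC class II molecules, which display peptides to helper T cells, are made by macrophages, dendritic cells and B cells and, under interferon-gamma, by other cells as well.

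The promoters of some of the genes that rose are shown here because they hold letters that match short elements through which interferon and class II regulators are known to act. Sequences are RefSeq's for GRCm38.p6, whose strain is not BALB/c, and each is written 5′ to 3′ along the gene's strand with the motif in capitals and 50 bases on either side of the match nearest the start of the gene, or fewer after it where the start was reached. The first pair holds a GAS element, the interferon-gamma activated site, searched as TTCNNNGAA. Gbp5 lies on the plus strand at chr3:142496832-142496933 and Fcgr1 on the minus strand at chr3:96294020-96294128.
Gbp5: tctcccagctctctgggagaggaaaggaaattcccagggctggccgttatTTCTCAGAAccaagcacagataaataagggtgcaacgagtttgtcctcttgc
Fcgr1: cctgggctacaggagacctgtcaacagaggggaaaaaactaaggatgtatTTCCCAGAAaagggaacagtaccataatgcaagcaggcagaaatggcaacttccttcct
Fcgr4, on the plus strand at chr1:171018803-171018912, holds the core of an interferon-stimulated response element (ISRE), searched as GAAA, any 2 bases and GAAA.
Fcgr4: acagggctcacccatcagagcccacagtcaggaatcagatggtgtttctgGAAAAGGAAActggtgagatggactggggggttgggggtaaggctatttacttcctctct
The class II genes H2-Aa, on the minus strand at chr17:34287824-34287921, and H2-Eb1, on the plus strand at chr17:34305782-34305866, hold CCAAT boxes, searched as CCAAT or its reverse ATTGG, which form part of the class II promoter.
H2-Aa: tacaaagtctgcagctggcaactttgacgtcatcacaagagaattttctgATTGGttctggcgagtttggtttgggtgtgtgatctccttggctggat
H2-Eb1: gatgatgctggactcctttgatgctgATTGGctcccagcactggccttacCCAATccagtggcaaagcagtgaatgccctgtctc

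The same 3 motifs were counted on both strands in the 250 bases before the start of each gene, a gene with several motifs counting under each of them. RefSeq promoters were matched for 86 of the 124 genes that rose and 549 of the 750 tested. A GAS element was found in 14 of the 86 (16.3%), against 12.9% of the tested genes and 8.13% of all 27025 promoters. An ISRE core was found in 13 of the 86 (15.1%), against 8.38% of the tested genes and 3.46% of all promoters. CCAAT boxes were found in 36.0% of the genes that rose, 35.5% of the tested genes and 37.5% of all promoters. These shares are descriptions without a test, and a match is a match of letters only.

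The 7 libraries differed in total signal. It ran from 300174 to 344673 under avelumab and was 360035, 386328, 511105 and 396270 in combination replicates 1 to 4, so that every combination library lay above every avelumab library and replicate 3 above all others. Over the 20 housekeeping genes the mean log2 signal was close in all of them, 8.86 to 8.91 under avelumab and 8.83 to 8.86 in the combination. Combination replicate 3 had the highest signal of the 4 mice in 117 of the 124 genes that rose. Results that rest on it are given with and without it.

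Adding NHS-muIL12 raised genes of antigen presentation, interferon-gamma response, Fc receptors, macrophages, complement and chemokines, and lowered few. On log2(signal + 1), limma with Benjamini-Hochberg adjustment over 750 genes and an adjusted p under 0.05 called 124 genes higher (16.5% of those tested) and 3 lower (0.400%). Without adjustment, 215 genes had a p under 0.05. The median change over all tested genes was 0.23, which is the level against which list medians are read. The signals of the 4 combination mice lay wholly above those of the 3 avelumab mice for 138 genes (18.4%) and wholly below for 22 (2.93%), and 107 of the 124 genes that rose were among the former. The plot of change against signal shows the 124 rises over the whole range of signal above the dimmest genes.

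**Figure D1:**
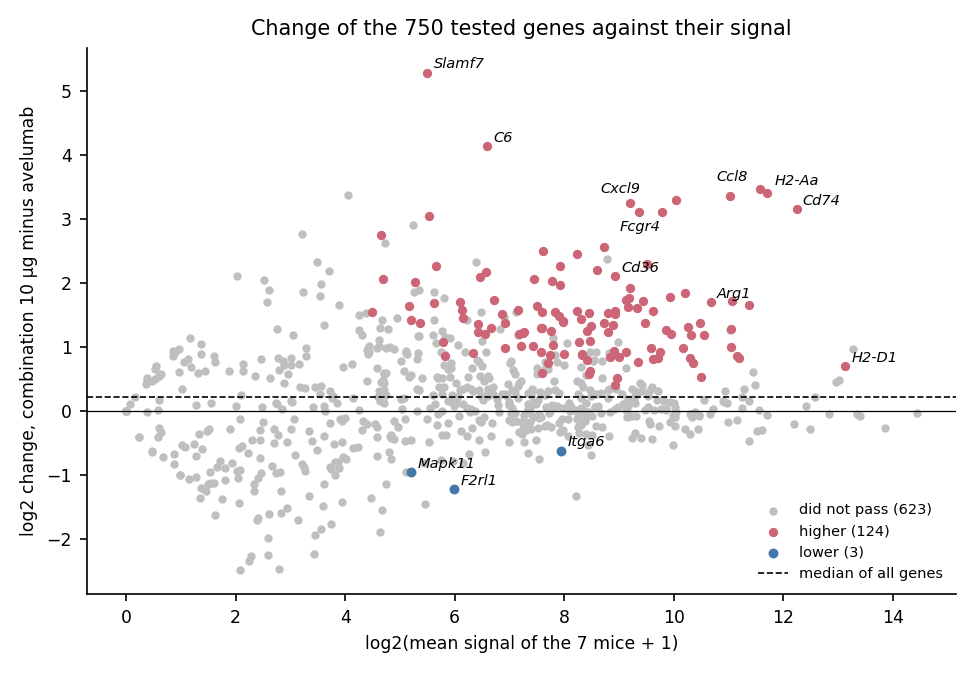
Each point is 1 of 750 genes: the x axis is log2 of the mean signal of the 7 mice plus 1, the y axis the log2 change of combination 10 µg minus avelumab. The 124 genes that rose are red and the 3 that fell blue, and the dashed line marks the median change of 0.23.

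The count depended on combination replicate 3, on avelumab replicates 2 and 3, on the scaling and on the mice that entered the estimate of spread. Without combination replicate 3, 60 genes were higher (8.0%) and 1 lower (0.133%), all 60 of them also called with it, and the median change was 0.12. The total was 52 without avelumab replicate 2 and 63 without avelumab replicate 3, and 36 genes, all of them rises, were called whichever of the 7 mice was left out. With each library centred on its median the split was 37 higher and 21 lower and the median change -0.26, and with quantile normalization 54 higher and 75 lower and -0.15. Median centring lowers the change of every gene, and so each list median, by the same amount. A fit to these 7 mice alone, without the other 15, gave 0 calls in limma, with 166 genes under 0.05 before adjustment and no adjusted p below 0.0969. Hereafter a change is the log2 change ± its standard error (SE), a fold is 2 to that power, and each adjusted p is limma's. Counts of list genes that rose are read against all genes in the same fit. That share was 16.5% with all mice, 8.0% without combination replicate 3, and 37 of 750 genes after median centring.

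MHC class II genes had the highest median change of the 25 gene lists, 2.87, and 6 of 10 measured rose. Signals are given here for avelumab replicates 2, 3 and 4 and then combination replicates 1, 2, 3 and 4. H2-Aa, the alpha chain of the class II A molecule, was at 370.1, 292 and 622 under avelumab and at 4140.3, 2186, 12583 and 3022 in the combination. The lowest combination mouse was above the highest avelumab mouse and replicate 3 stood above the other 3, and the change was 3.40 ± 0.60, or 10.6-fold (adjusted p = 0.00380). H2-Eb1, the beta chain of the E molecule, was at 109, 119.9 and 159 and then 1260.3, 534, 4321 and 853, a change of 3.29 ± 0.60 with no overlap between the groups. Cd74, the invariant chain that guides class II molecules to the peptide-loading compartment, was at 603, 548 and 1084 and then 6123, 2861, 17463 and 5204, 8.89-fold higher on a change of 3.15 ± 0.54 (adjusted p = 0.00380). Again all 4 combination mice lay above the 3 avelumab mice.

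In 3 other class II genes the combination mice again lay above the avelumab mice, with replicate 3 the highest. H2-Ab1, the beta chain paired with H2-Aa, changed by 3.11 ± 0.58, and H2-Ea-ps, the name on the panel for the E alpha chain, which BALB/c mice express, by 3.35 ± 0.73. H2-Dma, part of the peptide exchanger H2-DM, was the sixth. Without combination replicate 3 all 6 were still higher, H2-Aa by 2.89 and Cd74 by 2.66, and all 6 were also higher after median centring, by 2.92 and 2.67. Ciita, the master regulator of class II transcription, was at 6.90, 9.57 and 0 and then 21.5, 12.8, 113 and 14.1, a change of 2.63 ± 1.05 that did not pass (adjusted p = 0.100). It was dim in all mice but combination replicate 3. The other class II genes that did not pass were H2-DMb1, H2-DMb2 and H2-Ob, whose groups overlapped and whose changes were 1.05 ± 0.78, 0.53 ± 0.63 and -0.74 ± 0.89. In RNA of a whole tumour, more cells of a type and more RNA per cell cannot be told apart.

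Marker lists of the cells that make class II are set beside these genes. Of 22 macrophage and monocyte genes 13 rose, their summed signal running from 9723 to 24622 under avelumab and from 21273 to 46395 in the combination, and of 14 dendritic cell genes 2 rose, with sums of 299.96 to 458 and 548 to 1105. Of 16 B cell genes 1 rose, with sums of 80.9 to 165 and 97.8 to 213. Of all genes 16.5% rose, and the shares of the dendritic cell and B cell lists were no higher. The part of these cells in the class II result was not tested.

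**Figure D2:**
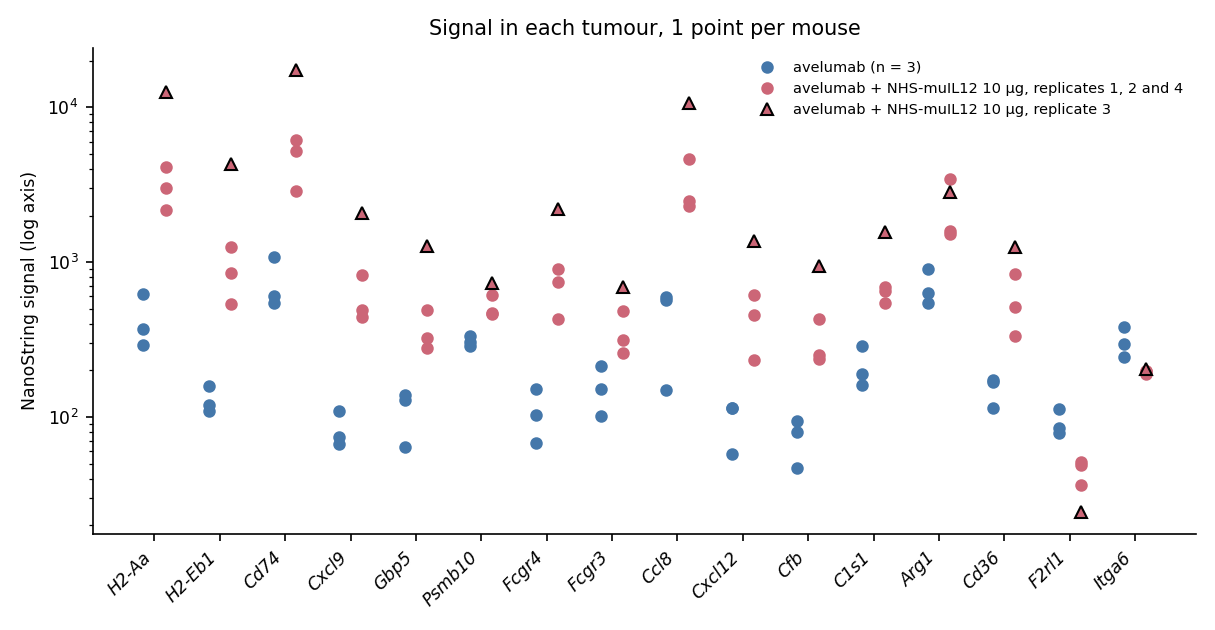
NanoString signal (log axis) of 16 genes, with 1 point per mouse: blue for the 3 avelumab mice and red for the 4 combination 10 µg mice, of which replicate 3 is an outlined triangle. For the first 14 genes the groups do not overlap and the combination is higher, while F2rl1 and Itga6 lie lower.

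Of 21 genes of the interferon-gamma response 17 rose, with a median change of 1.45 over the list. This list shares members with the class I, class II, interleukin-12, lymphocyte chemokine, Fc receptor, dendritic cell, arginine and checkpoint lists. Cxcl9, which draws activated T cells through Cxcr3, was at 67.1, 109 and 73.8 under avelumab and at 831, 492, 2086 and 442 in the combination. There was no overlap, replicate 3 was again the highest, and the change was 3.25 ± 0.57, or 9.53-fold (adjusted p = 0.00380). Gbp5, a GTPase that acts against microbes inside cells, was at 64.1, 139 and 128 and then 493, 323, 1266 and 278, a change of 2.21 ± 0.44 (adjusted p = 0.00510). Cxcl11, another ligand of Cxcr3, changed by 1.74 ± 0.36, with signals of 31.6 to 48.2 under avelumab and 85.5 to 267 in the combination. Irf8, a transcription factor of myeloid cells, changed by 1.31 ± 0.29. The groups overlapped for none of Cxcl9, Gbp5, Cxcl11 and Irf8, which passed whichever mouse was left out and after median centring. The count of 17 was 9 without combination replicate 3 and 6 after median centring.

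MHC class I genes and those that supply their peptides rose in 8 of 18 measured (median change 0.55). Psmb10, a subunit of the immunoproteasome, was at 288, 303 and 336 and then 613, 469, 732 and 462, a change of 0.85 ± 0.18 (adjusted p = 0.00522) with no overlap. H2-K1 changed by 0.76 ± 0.17, with signals of 786 to 1028 under avelumab and 1215 to 2131 in the combination, and H2-D1 by 0.70 ± 0.17, with signals of 5686 to 7109 under avelumab and 9247 to 14004 in the combination. Both are classical class I heavy chains, near copies of each other and of other class I genes, and the sources used here do not give the probe sequences, so their signals may be shared. The groups did not overlap for either gene, but both calls were lost without avelumab replicate 2, 3 of 18 class I genes were higher without combination replicate 3, and 0 of 18 passed after median centring, which left H2-D1 at 0.22 and Psmb10 at 0.37.

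Of 25 type I interferon response genes 8 rose (median change 0.68), beside 16.5% of all genes. The 17 that did not pass included Isg15, Ifit1, Ifit3, Mx1, Oas2 and Rsad2. Zbp1, a sensor of nucleic acids in the cytosol, was at 217, 337 and 294 and then 880.0, 678, 1544 and 562, a change of 1.61 ± 0.34 (adjusted p = 0.00642). All 4 combination mice lay above the avelumab mice, and the call held whichever mouse was left out. Ifi44l changed by 1.55 ± 0.38 and Ifih1, the RNA sensor MDA5 of the cytosol, by 0.89 ± 0.21. Their calls were lost without avelumab replicate 2, and that of Ifi44l also without avelumab replicate 3. Of the 25 genes, 3 were higher without combination replicate 3, near the 8.0% of all genes. After median centring 1, Zbp1, was higher, beside 37 of 750 genes.

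Of 16 genes of the interleukin-12 pathway itself 2 rose, a share no higher than the 16.5% of all genes. Il12rb1, the receptor chain shared with interleukin-23, was at 20.7, 44.1 and 30.8 under avelumab and at 101, 70.8, 142 and 74.4 in the combination. The groups did not overlap, and the change was 1.59 ± 0.38 (adjusted p = 0.00969), a call lost without avelumab replicate 2. Il18r1, the receptor for interleukin-18, which acts together with interleukin-12 on NK and T cells, was at 10.9, 12.3 and 15.8 and then 37.7, 31.8, 115 and 22.5. All combination mice were above the avelumab mice, and the change of 1.64 ± 0.53 (adjusted p = 0.0417) did not pass in 5 of the 7 fits that left out a mouse, those without any avelumab mouse or combination replicate 1 or 3, nor after median centring. Il12rb2, the chain that signals through Stat4, was listed at 0 in all 3 avelumab mice and at 3.28, 0, 13.8 and 4.62 in the combination, and did not pass (adjusted p = 0.0591).

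Messengers and switches of the pathway gave no call. Ifng was at 1.97, 10.9 and 0 and then 7.32, 0, 24.5 and 4.62, with a 95% interval of the change from -2.41 to 4.08. Each group held a mouse at 0, and the interval reached to both sides of 0. Tbx21, the transcription factor of type 1 T cells and NK cells, was at 17.8, 34.4 and 12.1 and then 12.4, 12.8, 28.1 and 14.1, with an interval of -2.66 to 2.09. Stat4 was at 3.94, 10.9 and 2.74 and then 10.4, 17.04, 23.6 and 10.3, with an interval of -0.86 to 3.56. The combination and avelumab mice overlapped for all 3 genes. The probes for Il12a and Il12b read the tumour's own transcripts, not the injected protein, and neither passed.

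Chemokines of monocytes and granulocytes and their receptors rose in part, 6 of 19 genes (median change 0.75), beside 16.5% of all genes. Cxcl1, Cxcl2, Cxcl3, Cxcl5, Cxcr1 and Cxcr2 were among those that did not pass. Ccl8, a ligand that draws monocytes and T cells, was at 566, 150.3 and 592 under avelumab and at 2316, 2492, 10665 and 4621 in the combination. Avelumab replicate 3 was the lowest of the 7 mice and combination replicate 3 the highest, with no overlap, and the change was 3.47 ± 0.70, or 11.1-fold (adjusted p = 0.00510). Cxcl12, the ligand of Cxcr4 made by stromal cells, was at 114, 57.9 and 115 and then 232, 459, 1363 and 615, a change of 2.57 ± 0.61 (adjusted p = 0.00969). Ccl6, a chemokine of mouse macrophages, was at 500.3, 338 and 454 and then 864, 1005, 2296 and 2801, a change of 1.85 ± 0.47 (adjusted p = 0.0131). For Cxcl12 and Ccl6 the groups did not overlap, and both calls were lost without avelumab replicate 3, that of Ccl6 also without combination replicate 3 and after median centring. The other 3 that rose were Ccl7, Ccl2 and Ccr1, and each of these calls was lost without avelumab replicate 2 or 3 or combination replicate 3. Without combination replicate 3, 2 of the 19 genes were higher, near the 8.0% of all genes. After median centring 2 were higher, beside 37 of 750 genes.

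Of 19 lymphocyte chemokines and receptors, 5 rose (median change 0.98), among them the ligands Cxcl9, Cxcl10, Cxcl11 and Cxcl16. Without combination replicate 3, 3 of the 19 were higher, and after median centring 2.

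Fc receptors, which bind antibody on phagocytes and NK cells, rose in 5 of 6 measured (median change 1.41), and 5 were also higher without combination replicate 3. Fcgr4, an activating receptor of mouse monocytes and macrophages, was at 104, 67.5 and 152 under avelumab and at 898, 427, 2197 and 742 in the combination. No combination mouse fell to the avelumab range, and the change was 3.11 ± 0.50, or 8.63-fold (adjusted p = 0.00380). Fcgr3, an activating receptor of lower affinity, was at 152, 102 and 215 and then 314, 260.5, 686 and 487, a change of 1.44 ± 0.29. Fcgr1, the receptor of high affinity, was at 223, 117 and 338 and then 561, 370.0, 1213 and 565, a change of 1.57 ± 0.38. None of the 3 overlapped, the call of Fcgr1 was lost without avelumab replicate 3, and after median centring 1 of the 6, Fcgr4, passed. Fcer1g, their signalling chain, and Fcgr2b, the inhibitory receptor, completed the 5, while Fcer1a, the receptor of mast cells for IgE, did not pass.

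Macrophage and monocyte genes rose in 13 of 22 (median change 1.05), in 6 without combination replicate 3 and in 2 after median centring. Over all genes the shares were 16.5%, 8.0% and 37 of 750 genes. The 9 that did not pass were Cd163, Marco, Ccr2, Lyz2, Csf1r, Apoe, Tlr2, Cd14 and Cxcl14. Of the defining markers, Csf1r did not pass and Cd68 rose. The call of Cd68 was lost without avelumab replicate 2 or 3 or combination replicate 3 and after median centring. Cd36, a scavenger receptor that takes up fatty acids and oxidised lipoprotein, was at 169, 114 and 174 and then 517, 332, 1248 and 841, a change of 2.11 ± 0.46 (adjusted p = 0.00699). Cybb, the catalytic subunit of the phagocyte oxidase, changed by 1.74 ± 0.37, and Itgam, the integrin chain CD11b of myeloid cells, by 1.09 ± 0.24. For these 3 genes the groups did not overlap and the calls held whichever mouse was left out, and Itgam did not pass after median centring. Mrc1, the mannose receptor, was at 374, 96.5 and 487 and then 377, 822, 1317 and 1356, a change of 1.73 ± 0.58 (adjusted p = 0.0481). Here combination replicate 1 lay within the avelumab range, and the gene did not pass in 5 of the 7 fits that left out a mouse, those without avelumab replicate 2 or 3 or combination replicate 2, 3 or 4, nor after median centring.

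Arg1 and Nos2 compete for arginine in myeloid cells, the former making ornithine and urea and the latter nitric oxide. Arg1 was at 633, 541 and 903 under avelumab and at 1579, 1527, 2822 and 3466 in the combination. Unlike in most genes, replicate 4 was the highest and replicate 3 came after it, with all 4 mice above the avelumab mice. The change was 1.70 ± 0.31, or 3.26-fold (adjusted p = 0.00386), and it was 1.58 without replicate 3. Nos2 was at 31.6, 39.9 and 23.3 and then 61.9, 63.4, 199 and 70.7, a change of 1.45 ± 0.48 (adjusted p = 0.0454). The groups did not overlap, but replicate 3 stood at 199 against 61.9 to 70.7 in the other 3, and without it the change was 1.05 (adjusted p = 0.180). The call of Nos2 was also lost without any of the 3 avelumab mice or combination replicate 4, and after median centring. Of the list of arginine metabolism and suppressive myeloid genes, 3 of 12 rose, Mrc1, Arg1 and Nos2 (median change 0.56), beside 16.5% of all genes. Without combination replicate 3, 1 of 12, Arg1, was higher, beside 8.0% of all genes. Arg1 alone was also higher after median centring.

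Complement genes rose in 12 of 28 (median change 1.04), in 6 without combination replicate 3 and in 4 after median centring. Cfb, factor B of the alternative pathway, was at 79.9, 46.8 and 94.4 under avelumab and at 236, 249.9, 948 and 431 in the combination, a change of 2.46 ± 0.48 (adjusted p = 0.00451). C4b, of the classical and lectin pathways, was at 281, 124 and 223 and then 658, 576, 2085 and 1147, a change of 2.29 ± 0.52 (adjusted p = 0.00746). C1s1, a protease of the C1 complex, was at 161, 288 and 191 and then 694, 547, 1576 and 648, a change of 1.93 ± 0.40 (adjusted p = 0.00541). In all 3 the groups did not overlap and the call held whichever mouse was left out and after median centring. C6, of the membrane attack complex, was dim under avelumab, at 5.92, 16.5 and 0.870 and then 47.8, 50.8, 418 and 126, a change of 4.14 ± 1.00. C1qa, C1qb and Itgam are on both the complement and the macrophage list.

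Of 21 NK cell receptor genes 5 rose (median change 0.64), beside 16.5% of all genes (median 0.23). Without combination replicate 3 there were 3 higher and the median was 0.25, beside 8.0% of all genes and a median of 0.12. After median centring 3 were higher. Slamf7, a receptor of NK cells, plasma cells and some macrophages, was at 0, 1.29 and 0 under avelumab and at 71.03, 28.6, 193 and 15.9 in the combination, with no overlap (adjusted p = 0.00699). Ncr1, the receptor NKp46 that defines NK cells, was at 8.88, 9.57 and 10.2 and then 34.6, 31.8, 32.5 and 22.5, a change of 1.56 ± 0.40 (adjusted p = 0.0136). Here replicate 3 did not stand out and the groups did not overlap, and the call was lost without avelumab replicate 2 or 3 and after median centring. Klrd1, the chain CD94 of NK inhibitory and activating receptors, changed by 2.26 ± 0.59, with signals of 6.90 to 22.4 under avelumab and 22.5 to 189 in the combination, a call lost without avelumab replicate 2 or 3 or combination replicate 3. Klra2, of the Ly49 family, changed by 1.64 ± 0.38, and since that family holds near copies its signal may be shared. Its call was lost without avelumab replicate 3 and after median centring.

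T cell genes gave 2 rises of 21 (median change 0.74), a lower share than the 16.5% of all genes, and 0 without combination replicate 3 (median 0.46). Cd3g, a chain of the T cell receptor complex, was at 1.97, 13.7 and 6.48 and then 15.4, 22.3, 97.7 and 16.9, a change of 2.06 ± 0.66 (adjusted p = 0.0415). Lck, the kinase that starts T cell receptor signalling, was at 31.6, 21.98 and 43.9 and then 54.9, 62.4, 108 and 56.5, a change of 1.09 ± 0.28 (adjusted p = 0.0133). Neither pair of groups overlapped, and both calls were lost without avelumab replicate 2, without combination replicate 3 and after median centring, that of Cd3g also without avelumab replicate 4 and that of Lck without avelumab replicate 3. Cd3e, the defining marker, was at 4.93, 20.6 and 8.35 and then 25.5, 15.99, 78.1 and 17.8 and did not pass (adjusted p = 0.293). Txk, a kinase of type 1 T cells, was at 0, 0 and 6.48 and then 10.4, 11.8, 20.01 and 9.34 and did not pass either (adjusted p = 0.0536).

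No cytotoxic effector gene passed, 0 of 9, with a median change of 0.82, or 0.35 without combination replicate 3. Gzma, a granzyme of NK and T cells, was at 29.6, 31.6 and 56.1 and then 45.8, 143, 78.98 and 71.6, with an interval of the change from -0.07 to 2.15 (adjusted p = 0.207). Tnfsf10, the death ligand TRAIL, was at 18.7, 38.5 and 28.9 and then 56.9, 58.1, 123 and 48.97 (adjusted p = 0.0574). The groups overlapped for Gzma and not for Tnfsf10. Regulatory T cell genes gave 0 rises of 8, and B cell genes 1 of 16, Btk, a kinase that myeloid cells also express (change 0.91 ± 0.28). Its call was lost without avelumab replicate 2 or 3 or combination replicate 3 or 4 and after median centring.

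Checkpoint genes gave 3 rises of 15, near the 16.5% of all genes, and their median change of 0.05 was below the 0.23 of all genes. Without combination replicate 3, 1 of 15 was higher, a share below the 8.0% of all genes, and after median centring 0 were. Cd274, which encodes PD-L1, the target of avelumab, was at 117, 364 and 188 under avelumab and at 707, 407, 1876 and 412 in the combination. All 4 combination mice lay above the avelumab mice, replicates 2 and 4 only a little above avelumab replicate 3, and the change was 1.77 ± 0.51 (adjusted p = 0.0227). Without combination replicate 3 it was 1.29 (adjusted p = 0.0862), and the call was also lost without avelumab replicate 2 or 4. Tnfrsf14, the ligand of the inhibitory receptor BTLA, changed by 1.24 ± 0.30, with signals of 60.6 to 108 under avelumab and 140.3 to 370.2 in the combination, a call also lost without avelumab replicate 3. Cd200r1, an inhibitory receptor of myeloid cells, changed by 1.30 ± 0.38 with overlapping groups, a call also lost without avelumab replicate 2 or 3 or combination replicate 3 or 4. Of 15 costimulatory genes 1 rose, a share below that of all genes. It was Cd86, a ligand of CD28 and CTLA-4, with a change of 0.99 ± 0.29. The groups overlapped, and its call was lost without avelumab replicate 2 or 3 or combination replicate 3 and after median centring.

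Other genes with large rises stood on none of the lists. Cd38, an enzyme that breaks down NAD on activated immune cells, was at 83.9, 31.6 and 92.5 under avelumab and at 275, 165, 797 and 238 in the combination, a change of 2.26 ± 0.43 (adjusted p = 0.00412). Ly9, a receptor of the SLAM family on lymphocytes, was dimmer, at 8.88, 10.9 and 14.9 and then 28.6, 36.01, 118 and 46.1, a change of 2.01 ± 0.45. For Cd38 and Ly9 the groups did not overlap, and both calls held whichever mouse was left out. Serpinb2, a protease inhibitor of macrophages, was at 40.5, 15.1 and 58.9 and then 34.6, 205, 254 and 758, a change of 2.51 ± 0.77 (adjusted p = 0.0339). Combination replicate 1 lay within the avelumab range and replicate 4 was the highest, and the call was lost in 5 of the 7 fits, those without avelumab replicate 2 or 3 or combination replicate 2, 3 or 4. Il2rg, the shared receptor chain of interleukin-2 and its relatives, changed by 2.76 ± 0.84, with signals of 1.81 to 11.8 under avelumab and 19.2 to 76.3 in the combination, a call lost in 4 of the 7 fits, those without avelumab replicate 3 or 4 or combination replicate 3 or 4. Ticam2, an adaptor of Toll-like receptor 4, changed by 3.04 ± 0.83, with signals of 0 to 24.3 under avelumab and 25.5 to 123 in the combination, a call lost without avelumab replicate 3 or combination replicate 3. After median centring Serpinb2 and Il2rg did not pass.

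**Figure D3:**
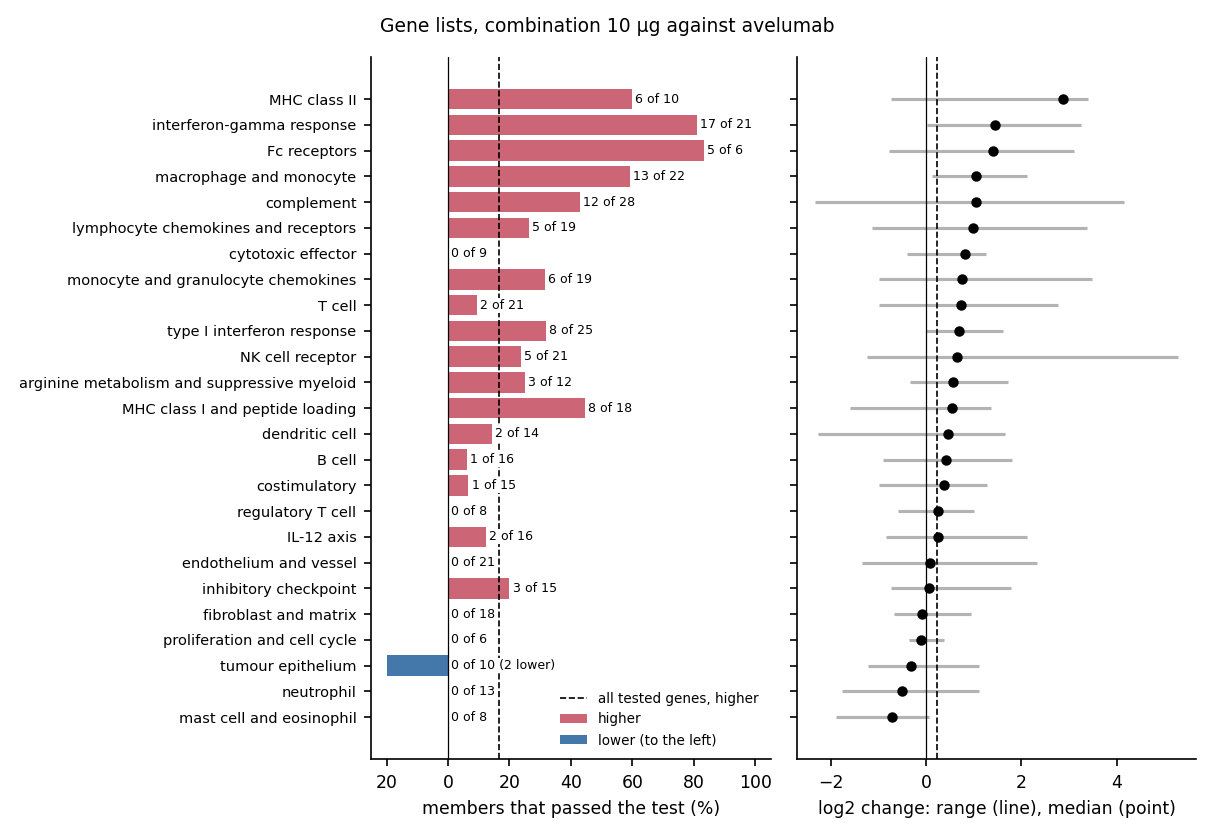
Left, percent of the measured genes of each of 25 lists that rose (red, with the count) or fell (blue, to the left), with a dashed line at the 16.5% of all tested genes that rose. Right, the median (point) and range (line) of the log2 change of each list, with a dashed line at the median of 0.23 over all tested genes.

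Only 3 genes fell, and 2 of them are on the tumour epithelium list, where 0 of 10 rose. F2rl1, the protease-activated receptor PAR2 of epithelium and other cells, was at 78.9, 85.4 and 113 under avelumab and at 36.7, 48.7, 24.5 and 50.9 in the combination. The groups did not overlap, replicate 3 was the lowest, and the change was -1.22 ± 0.31 (adjusted p = 0.0131), or -1.01 without that mouse (adjusted p = 0.0542). Itga6, an integrin of epithelium that binds laminin, was at 298, 245 and 382 and then 190.4, 199, 205 and 197, a change of -0.61 ± 0.16 (adjusted p = 0.0136). The 4 combination mice lay close together and below the avelumab mice, and the call was lost without avelumab replicate 2 or 4. Mapk11, a p38 kinase, was at 50.3, 68.9 and 31.7 and then 15.4, 27.6, 27.2 and 30.1, a change of -0.95 ± 0.32 (adjusted p = 0.0493). Replicate 1 was the lowest, and the call was lost in 6 of the 7 fits, all but the fit without avelumab replicate 4. All 3 were lower with each scaling, and after median centring F2rl1 changed by -1.71, Itga6 by -1.10 and Mapk11 by -1.44.

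The lists of other cell types gave no calls. Neutrophil genes (0 of 13, median change -0.51) and mast cell and eosinophil genes (0 of 8, -0.73) had the lowest medians. Tpsab1, a mast cell tryptase, was at 15.8, 12.3 and 42.96 and then 6.31, 4.40, 7.50 and 11.2 and did not pass (adjusted p = 0.132), although the groups did not overlap and it was lower after median centring (-1.91, adjusted p = 0.0473). Cma1, the mast cell chymase, was at 32.6, 31.6 and 34.5 and then 1.26, 2.29, 43.2 and 20.7, with combination replicate 3 above the avelumab mice. Mmp9, a gelatinase of neutrophils and macrophages, was at 444, 378 and 321 and then 87.2, 644, 75.4 and 122 and did not pass (adjusted p = 0.163). Combination replicate 2 alone was above the avelumab range. Endothelial genes (0 of 21), fibroblast and matrix genes (0 of 18) and proliferation genes (0 of 6) had medians of 0.08, -0.09 and -0.11. After median centring Cdh5, Dll4 and Itgb3 of endothelium were called lower, as was Il1r2, a decoy receptor for interleukin-1, of the neutrophil list (-1.43, adjusted p = 0.0235).

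The lower dose of NHS-muIL12 with avelumab, 2 µg, was set beside the higher dose to see what the dose added. Both doses are compared with the same 3 avelumab mice, so their changes are not independent. At 2 µg 72 genes were higher (9.60%) and 9 lower (1.20%), with 190 under 0.05 before adjustment. H2-Aa was at 5347, 1545, 3263 and 4935 in combination 2 µg replicates 1 to 4, a change of 3.06 ± 0.60 beside the 3.40 ± 0.60 at 10 µg. Cxcl9 changed by 3.08 ± 0.57 and 3.25 ± 0.57, Fcgr4 by 2.49 ± 0.50 and 3.11 ± 0.50, and F2rl1 by -1.02 ± 0.31 and -1.22 ± 0.31. Passing at 2 µg were the 6 class II genes, 3 of the 6 Fc receptors and 13 of 21 interferon-gamma response genes. The 2 µg count fell to 0 without avelumab replicate 2 or 3 or combination 2 µg replicate 1 or 4, was 45 without its replicate 3, and was 0 in a fit to the mice of both groups alone.

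Tested directly against each other, the 2 combination doses gave no calls in limma, 0 of 750 genes (0%), with 35 under 0.05 before adjustment and no adjusted p below 0.320. The intervals of the class II and interferon genes reached to both sides of 0. H2-Aa differed by 0.34 ± 0.55 (95% interval -0.83 to 1.51), Cxcl9 by 0.17 ± 0.53 (-0.94 to 1.29) and Gbp5 by 0.15 ± 0.41 (-0.72 to 1.01). Arg1 and Elk1 had the smallest p. Arg1 was at 879, 883, 880.4 and 1416 at 2 µg, against 1579, 1527, 2822 and 3466 at 10 µg, a difference of 1.15 ± 0.29 (95% interval 0.55 to 1.75), and the doses did not overlap. Elk1, a transcription factor of the serum response, was dim, at 3.34, 0, 6.37 and 3.26 against 10.4, 17.04, 15.5 and 13.1, a difference of 2.11 ± 0.52 (1.01 to 3.22), and here too the doses did not overlap. Against avelumab Elk1 changed by only 0.14 at 10 µg (adjusted p = 0.915). Its fitted level at 10 µg was thus near that under avelumab, and the level at 2 µg was the lower one. Neither gene passed between the doses (both adjusted p = 0.320). Both were picked for the smallest p, so the lack of overlap adds little, and its share over all genes was not counted.

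**Figure D4:**
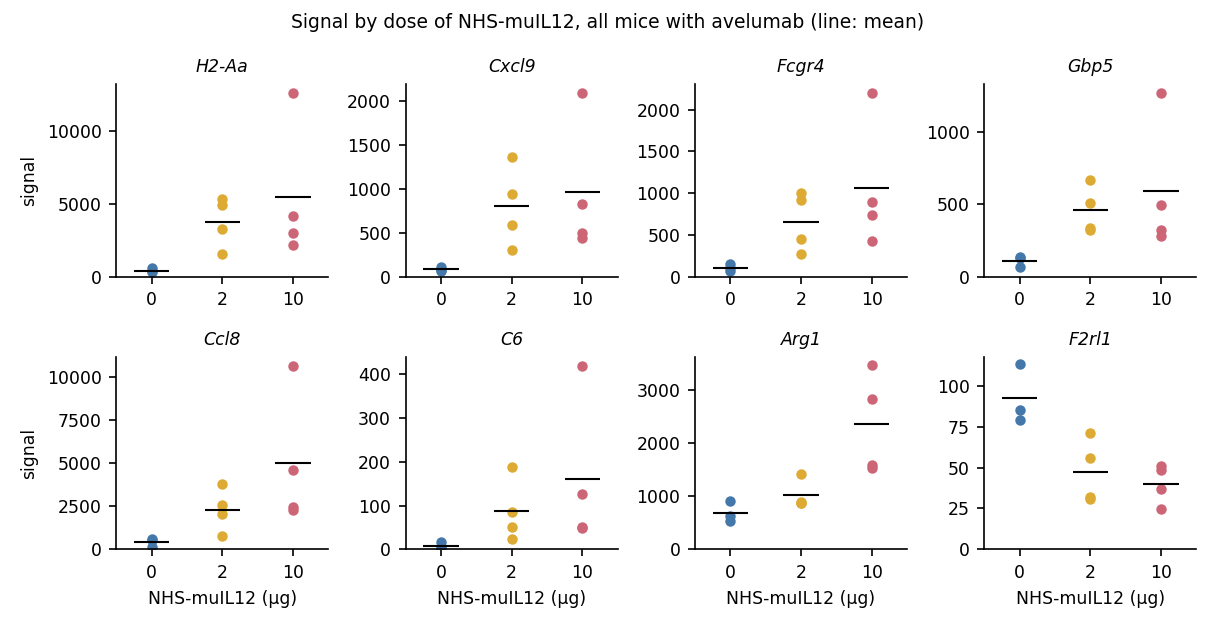
Signal of 8 genes (linear axes from 0) against the dose of NHS-muIL12 in µg, in mice all given avelumab, with 1 point per mouse and a line at the group mean (n = 3, 4 and 4). Of the 8 genes shown, Arg1 alone has its 4 mice at 10 µg all above the 4 mice at 2 µg.

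Whether the same addition gave other changes in the absence of avelumab was tested as an interaction, the change on 10 µg with avelumab minus the change on 10 µg against isotype in other mice. limma called 0 of 750 genes (0%), with 16 under 0.05 before adjustment and no adjusted p below 0.992. The difference between the changes was -0.56 ± 0.85 for H2-Aa (95% interval -2.35 to 1.22), -0.80 ± 0.81 for Cxcl9 (-2.50 to 0.90) and 0.30 ± 0.70 for Fcgr4 (-1.18 to 1.78). For Ccl8 it was 1.54 ± 0.99 (-0.55 to 3.63), for C6 2.75 ± 1.41 (-0.23 to 5.72) and for Arg1 0.71 ± 0.44 (-0.21 to 1.63). These intervals are wide and each holds 0, which does not show that the changes were alike.

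Lyve1 and Aire had the smallest p of the interaction. Lyve1, a hyaluronan receptor of lymphatic vessels and some macrophages, was at 39.5, 4.05 and 38.3 under avelumab and 42.7, 73.9, 121 and 258 in the combination, against 45.7, 41.9, 62.6 and 129 under isotype and 58.4, 15.4 and 9.78 with 10 µg NHS-muIL12 alone. Its fitted change was above 0 with avelumab and below 0 without it, a difference of 3.88 ± 1.20 that did not pass (adjusted p = 0.992). Aire, the autoimmune regulator of the thymus, was dim, at 4.93, 5.43 and 8.35 and 5.30, 3.34, 0.357 and 3.68 with avelumab and at 0, 0, 1.84 and 5.67 and 6.54, 7.95 and 6.43 without it. Its difference was -2.89 ± 0.95, also not past the test (adjusted p = 0.992).

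**Figure D5:**
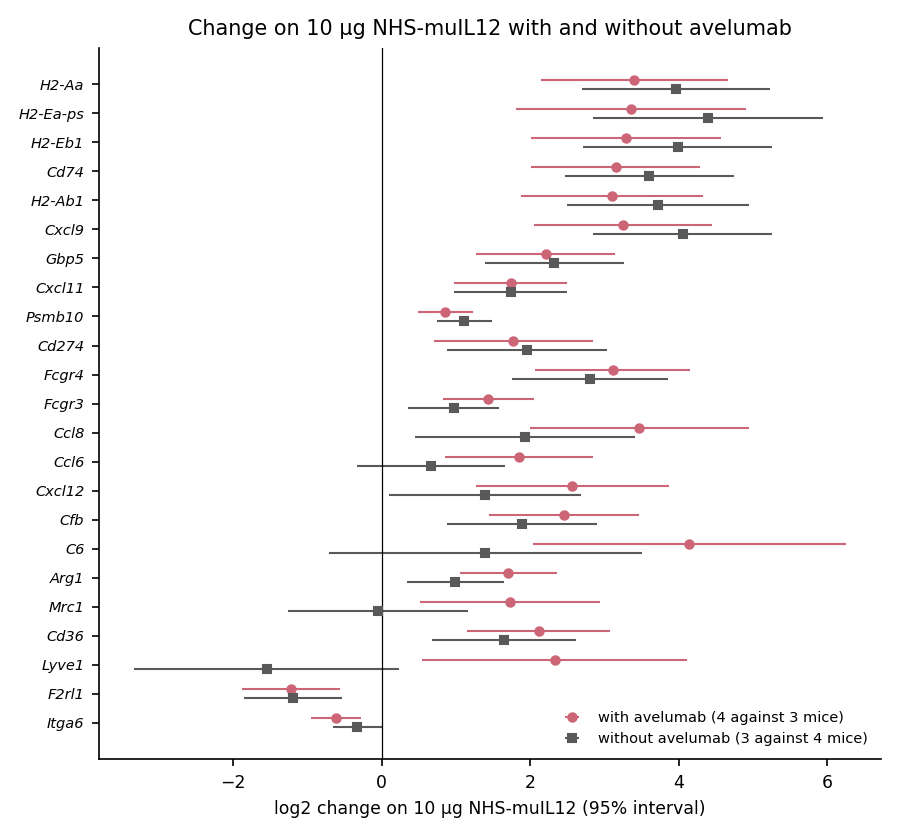
Log2 change on 10 µg NHS-muIL12 with its 95% interval for 23 genes, with avelumab (circles, 4 against 3 mice) and without it (squares, 3 against 4 mice). The intervals of most genes overlap widely, and Lyve1 lies on opposite sides of 0.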

How the data were processed

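Total RNA of tumours from 22 mice was read with NanoString probes by a standard protocol, per the labels. The values the authors deposited are signal on a linear scale. They stop at 0 and lie on equally spaced steps with an offset, and were read as probe counts less a background and scaled per sample. The sources used here do not give the software, background or scaling, and with the offset whole counts could not be recovered, so no count model was fitted, depth is unknown, and precision was read from the spread between mice.

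limma 3.58.1 (lmFit, contrasts.fit and eBayes, under R 4.3.3, with statmod 1.5.0) was fitted to log2(signal + 1), with 1 mean for each of 6 groups, 16 residual degrees of freedom, two-sided tests, and Benjamini-Hochberg adjustment over 750 genes at 0.05. A fold is on this scale and understates changes of dim genes. The fit was tested on simulated data. Comparisons were combination 10 µg with avelumab and with combination 2 µg, combination 2 µg with avelumab, and the interaction at 10 µg. Each title names a replicate, and columns were mapped by title, with 0 unmapped. Same-numbered avelumab and combination mice correlated by -0.0735 to 0.0271 in their deviations from group means, so numbers were not taken as pairs. Of the 770 panel names, 754 are current mouse symbols, 8 are older synonyms and 8 are neither. H2-Dma was read as H2-DMa and Emr1 as Adgre1.

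The 25 gene lists and the genes compared were chosen with earlier results of these data known, and lists are described by counts and medians with no test. Named genes passed the test and were the 15 largest rises with a mean signal of at least 50, the 6 largest dimmer rises or the 10 largest falls (filled by the smallest p to 5 falls), or were up to 3 genes of each list with the smallest p, the interleukin-12 pathway, Cd274, and the 2 smallest p for the dose difference and the interaction. Defining cell markers were named beside them, and others that complete a count or are named for their role, such as Ciita, were chosen after their values were seen. Alternatives were a pseudocount of 10, a mean signal filter of 20, median centring, quantile normalization, only the compared groups, trended and robust spread, sample weights, a replicate block, leaving out each mouse, and, added after seeing the data, leaving out the 4 libraries of other groups with the highest lower quartile of signal.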

Additional observations from a re-analysis of the deposited data

Results flagged for a closer look

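Among the 67 genes searched, 4 had a combination 10 µg mouse far from the other 3, by a gap that chance gives in about 1 in 20 groups. Nos2 in replicate 3 was at 199 against 61.9 to 70.7. Tbx21 in replicate 3 was at 28.1 against 12.4 to 14.1. Tnfrsf14 in replicate 3 was at 370.2 against 140.3 to 160.3. Mapk11 in replicate 1 was at 15.4 against 27.2 to 30.1. Replicate 3 is also the library with the highest total signal, 511105, and the part of that in these values was not tested.

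The change on 10 µg NHS-muIL12 went in opposite directions with and without avelumab for Lyve1, with a difference of 3.88 on the log2 scale, and for Aire, with a difference of -2.89. Neither passed in limma (both adjusted p = 0.992). Both genes were named for the smallest p of the interaction, so their opposite directions are no separate support for a difference. Directions were read against the mean of the control mice. Treated and control mice overlapped for Lyve1 without avelumab and for Aire with it.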

How the results depend on the processing

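The 127 calls of combination 10 µg against avelumab ran from 121 to 160 with a pseudocount of 10, the signal filter, quantile normalization, the trended and robust spread, sample weights, the replicate block (123) and on leaving out the 4 libraries with high low-end signal. Under quantile normalization the total was alike but the directions were not, with 54 higher and 75 lower against 124 and 3. They were 58 after median centring, 0 with only the groups compared, and 52 to 144 with 1 mouse left out. The 81 calls of combination 2 µg were 0 with only the groups compared, 217 with sample weights, 47 without the 4 libraries and 56 with the replicate block, and 0 to 95 with 1 mouse left out. The dose difference and the interaction gave 0 calls under every alternative run, the replicate block included. Of the 53 genes that passed and were named by the rules above, 26 held their call in each of the 7 fits without a mouse. Genes named only to complete a count are not among the 53. Of these, H2-Dma held its call in all 7 fits. Ccl2, Ccl7, Ccr1, Cxcl10, Cxcl16, Fcer1g, Fcgr2b, C1qa and C1qb did not. The changes of 2 genes named by the rules turned sign, neither of them a call: Ifng ran from -0.0198 (without avelumab replicate 4) to 1.77 and Tbx21 from -0.61 to 0.11 (without avelumab replicate 3) over the 7 fits. The fits with fewer mice and with fewer groups hold fewer samples, and beyond that the cause was not tested. Signals of a few units near the floor at 0, as for Ifng, Il12rb2 and Stat4, limit what these mice can show.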
